A study of Mus musculus with 6 samples.

Results

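The variable (V) genes of the mouse immunoglobulin kappa light chain locus on chromosome 6 were examined by family and by orientation. The members were all genes whose symbol starts with Igkv in the GENCODE M1 annotation of the mm9 assembly (NCBIM37), which gave 100 genes of 37273 annotated genes. A symbol gives the family before the hyphen and the place along the locus after it, so that Igkv1-117, written Vκ1-117 here, belongs to family Vκ1. The 100 genes fell into 19 families and spanned 3148542 bp, from chr6:67505630 to chr6:70654171. This annotation does not hold every Vκ gene of the locus. The authors analysed more Vκ genes, including a family absent here, so all counts of genes and families are of annotated genes. The constant gene Igkc and the Jκ segments lie beyond the last of them. On the strand of Igkc were 38 genes, and 62 were on the opposite strand.

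Chromatin immunoprecipitation with sequencing (ChIP-seq) had been performed in pre-B cells for 2 histone marks, H3K27ac and H3K4me3, and for the transcription factor Pax5, with 1 library and 1 list of enriched positions for each. The cells came from bone marrow of C57BL/6 mice of 6 to 14 wk of both sexes that lacked RAG and carried a rearranged IgM heavy chain transgene (RAG-/-µ+). All libraries shared this genotype, so every Vκ gene was in its unrearranged position and there was no second genotype or stage to compare with. With 1 library per list there was no replicate check, the depth of the libraries is unknown, and counts are therefore given beside the same count over other annotated genes, with no p-value.

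A Vκ gene consists of a short leader exon, an intron and a V exon, which is followed directly by a recombination signal sequence (RSS). The RAG recombinase cuts at this RSS and joins the V exon to a Jκ segment. A Vκ gene on the strand of Igkc rearranges by deletion of the DNA in between, whereas a gene on the other strand rearranges by inversion, which keeps the intervening genes in the chromosome. Most Vκ promoters hold an octamer that binds Oct proteins, and H3K4me3 and H3K27ac are marks of active promoters and of active promoters and enhancers, respectively. Pax5 is the factor that commits cells to the B lineage.

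The RSS of a Vκ gene has a heptamer, a spacer of 12 bases and a nonamer. Their consensus letters are CACAGTG and ACAAAAACC. The first of the following sequences are the RSS of the 4 genes that had entries in all 3 lists, read 5′ to 3′ on the strand of the gene from the mm9 reference, with the heptamer and the nonamer in capitals. After them stand those of the pairs in the run of family Vκ12 and Vκ5 genes described below, and those of Vκ3-10 and Vκ4-78, which matched both consensus parts in full.
Vκ1-117 (chr6:68071822-68071849, + strand): CACAGTGatacagaccctaACAAAAATA
Vκ1-110 (chr6:68221262-68221289, + strand): CACAGTGatacagaccctaACAAAAATA
Vκ10-95 (chr6:68630843-68630870, + strand): CACAATGatataagtcataACATAAACC
Vκ19-93 (chr6:68686263-68686290, - strand): CACAGTGatacaaatcataACAAAAACC
Vκ12-46 (chr6:69714489-69714516, - strand): CACAGTGattcaagccatgACATAAACC
Vκ12-44 (chr6:69764597-69764624, - strand): CACAGTGattcaagccatgACATAAACC
Vκ5-45 (chr6:69725716-69725743, - strand): CACAGTGatgcagaccataGCAAAAATC
Vκ5-43 (chr6:69773321-69773348, - strand): CACAGTGatgcagaccataGCAAAAATC
Vκ3-10 (chr6:70523225-70523252, + strand): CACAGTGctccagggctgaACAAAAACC
Vκ4-78 (chr6:69009656-69009683, - strand): CACAGTGctacagactagaACAAAAACC

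The promoter octamer was read as ATTTGCAT on the strand of the gene, the reverse complement of ATGCAAAT. It is printed in capitals with 11 bases on each side for genes with an exact match, and for Vκ1-117, Vκ1-110 and Vκ6-25 with the closest match, which differs from the octamer at 1 base.
Vκ19-93 (chr6:68686838-68686867, - strand): agatgaagctgATTTGCATgtgctgagatc
Vκ15-103 (chr6:68387352-68387381, + strand): ttcccctgctgATTTGCATgttaccagagc
Vκ12-46 (chr6:69715068-69715097, - strand): accctttgctgATTTGCATatacccaaagc
Vκ12-44 (chr6:69765176-69765205, - strand): accctttgctgATTTGCATgtacccaaagc
Vκ5-43 (chr6:69773995-69774024, - strand): aagtcagtatgATTTGCATaaatacatctt
Vκ4-78 (chr6:69010307-69010336, - strand): gcctagaatatATTTGCATatttcattttc
Vκ1-117 (chr6:68070955-68070984, + strand): ctaaagggagcTTTTGCATattgctcccca
Vκ1-110 (chr6:68220391-68220420, + strand): ctaaagggagcTTTTGCATattgctcccca
Vκ6-25 (chr6:70165316-70165345, + strand): tttgatgactaCTTTGCATagatccctaga

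The label of the cells was checked first. All 8 B lineage markers reported, Cd79a, Cd79b, Pax5, Ebf1, Blnk, Vpreb1, Igll1 and Il7r, had an H3K27ac and a Pax5 entry within 1000 bp of an annotated start, and 7 of them had an H3K4me3 entry, the exception being Igll1. The 3 T lineage genes Cd3e, Cd4 and Cd8a had none. The 3 myeloid genes Itgam, Csf1r and Lyz2 and the erythroid genes Klf1 and Epor had entries of both histone marks but none of Pax5, and Gata1 had none. Whether other cells contributed to the libraries was not tested.

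An entry is a row of a list, or for H3K4me3 a region of touching bins. A gene was counted for a list when at least 1 bp of an entry lay within the gene or 500 bp on either side. Of the 100 Vκ genes, 37 (37%) had an H3K27ac entry, against 38.9% of all 37273 genes. An H3K4me3 entry was found at 12 genes (12%), against 37.8% of all genes, and a Pax5 entry at 13 genes (13%), against 29.2% of all genes. The median length was 525 bp for the Vκ genes and 5384 bp for all genes, and the part of length in these shares was not tested. Among the 11660 annotated genes of at most 1000 bp, whose median length was 271 bp, the shares were 7.81% for H3K27ac, 5.09% for H3K4me3 and 3.87% for Pax5, each below the share of the Vκ genes. At least 1 list had an entry at 42 Vκ genes, and 58 genes had none.

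The V genes of other antigen receptor loci gave different counts under the same rule. Of 37 Ighv genes, the heavy chain counterparts, 18 (48.6%) had an H3K27ac entry, but 0 had an H3K4me3 entry and 0 had a Pax5 entry. All 3 Iglv genes of the lambda light chain had an H3K27ac entry, and Iglv3 also had H3K4me3. Among 45 Trav genes 5 (11.1%) had H3K27ac and 1 had H3K4me3, and among 22 Trbv genes 4 (18.2%) had H3K27ac and 1 had Pax5. The 4 Trdv genes had none.

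**Figure D1:**
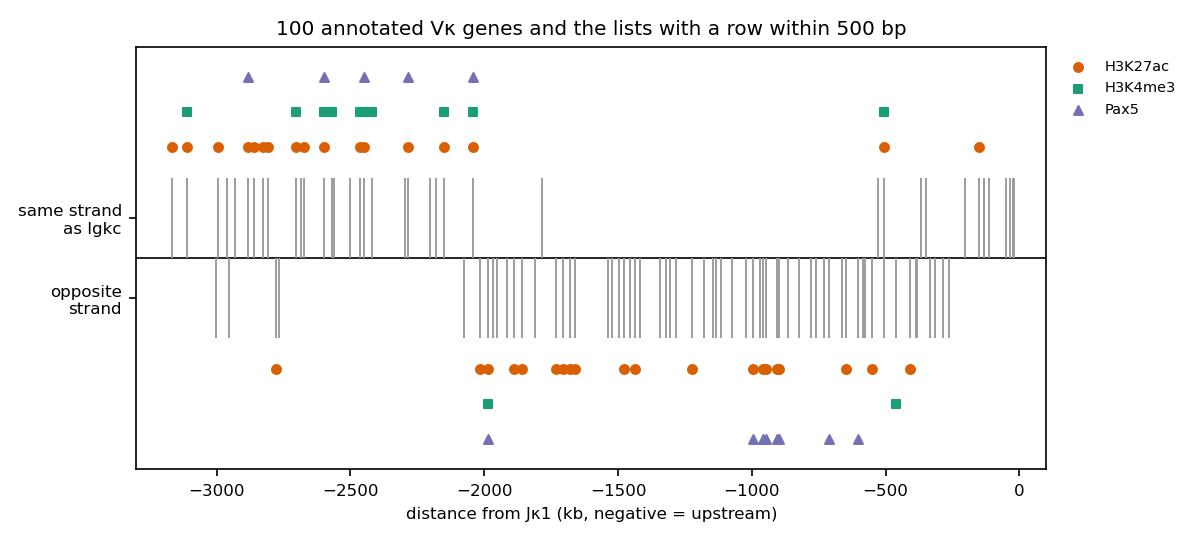
Each of the 100 Vκ genes is a grey line at its distance from Jκ1 in kb (x axis, negative is upstream), above the centre line for genes on the strand of Igkc and below it for genes on the opposite strand; coloured symbols mark genes with an entry of H3K27ac (circle), H3K4me3 (square) or Pax5 (triangle) within 500 bp. Of the 12 genes with H3K4me3, 10 lie in the far part, and the middle part holds none.

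The lists overlapped at the genes. Of the 13 genes with Pax5, 11 (84.6%) also had H3K27ac, which were 29.7% of the 37 genes with H3K27ac. Of the 12 genes with H3K4me3, 9 (75%) had H3K27ac, which were 24.3% of the genes with H3K27ac. H3K4me3 and Pax5 shared 4 genes, 30.8% of those with Pax5 and 33.3% of those with H3K4me3. Among genes of at most 1000 bp, 84.7% of those with Pax5 and 80.6% of those with H3K4me3 had H3K27ac, and 80.5% of those with Pax5 had H3K4me3. Over all annotated genes these shares were 92.7%, 88.8% and 93.6%. The share of Pax5 genes with H3K27ac was thus near that of other short genes. In the other direction, 41.9% of the short genes with H3K27ac had Pax5 and 52.5% had H3K4me3, and 61.2% of those with H3K4me3 had Pax5. Over all annotated genes these were 69.6%, 86.1% and 72.5%. Each was above the share at Vκ genes. H3K27ac was the sole list at 21 genes, H3K4me3 at 3 (Vκ2-116, Vκ2-109 and Vκ6-23) and Pax5 at 2 (Vκ1-35 and Vκ8-30). Every gene that had both H3K4me3 and Pax5 thus had H3K27ac as well. Genes with a sole list were not counted over other annotated genes.

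Entries of all 3 lists were found at Vκ1-117, Vκ1-110, Vκ10-95 and Vκ19-93, all in the far part of the locus, which is defined below. The score of an H3K27ac or Pax5 entry is the number given by the peak caller of the authors, and it is used here to order entries within a list. At Vκ1-117 the highest H3K27ac score was 14.1, the H3K4me3 region was 1100 bp wide and the Pax5 score was 163. At Vκ1-110 the H3K27ac score was 15.8, the H3K4me3 region was 1075 bp wide and the Pax5 score was 185. The windows of these 2 genes shared 38.9% of the 32-mers of Vκ1-117, and reads from shared stretches cannot be told apart. At Vκ10-95 the H3K27ac score was 8.16, the H3K4me3 region 275 bp and the Pax5 score 182. Vκ19-93 was the single annotated member of its family and 1 of 2 opposite-strand genes with H3K4me3. Its H3K27ac score was 26.1, its wider H3K4me3 region 500 bp and its Pax5 score 138. Every 32-mer of the Vκ19-93 window occurs once in the genome.

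H3K27ac with Pax5 and without H3K4me3 was found at 7 genes. Of these, 5 formed a run on the opposite strand between 69676567 and 69773905, made up of Vκ5-48, Vκ12-46, Vκ5-45, Vκ12-44 and Vκ5-43. The H3K27ac scores along the run were 5.94 at Vκ5-48, 27.2 at Vκ12-46, 19.6 at Vκ5-45, 16.7 at Vκ12-44 and 18.4 at Vκ5-43. The score of Vκ12-46 was the highest at any Vκ gene, and apart from Vκ19-93 the other genes with the 5 highest scores were all in the run. The Pax5 scores in the same order were 169, 141, 98.0, 196 and 142. Within the run, Vκ12-47, a pseudogene in RefSeq, had no entry and lay 12324 bp from the nearest H3K27ac entry. The next 5 annotated genes toward Jκ1, Vκ12-41, Vκ5-39, Vκ12-38, Vκ5-37 and Vκ18-36, had no entry of any list. Yet 29.1% of the 32-mers of Vκ12-41 were shared with Vκ12-44. Vκ5-45 and Vκ5-43 shared 46.3% of their 32-mers. The other 2 genes with H3K27ac and Pax5 were Vκ9-129 and Vκ15-103, on the strand of Igkc in the far part.

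Pax5 scores at Vκ genes were low for the list. The highest was 278 at Vκ15-103, followed by 196 at Vκ12-44, 185 at Vκ1-110, 182 at Vκ10-95 and 170 at Vκ8-30. The median over all 15445 Pax5 entries was 207, so that 1 of the 13 entries at Vκ genes was above it. For H3K27ac the median of 69345 entries was 8.52, and 21 of the 45 entries at Vκ genes were above it. In the higher-scoring 50% of the lists, H3K27ac was at 18 Vκ genes, against 34.6% of all genes and 5.87% of genes of at most 1000 bp, and Pax5 was at 1 gene, Vκ15-103, against 18.5% and 2.13%.

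Genes with H3K4me3 differed in how much of the gene was marked. The H3K4me3 list consists of bins of 25 bp without a score, and touching bins were joined into regions. The regions were widest at Vκ2-109 (1350 bp), Vκ1-135 (1325 bp), Vκ1-117, Vκ1-110 and Vκ1-122 (975 bp). Vκ19-93 and Vκ12-98 had regions of 500 and 450 bp. At the remaining 5 genes, Vκ10-95, Vκ6-25, Vκ2-116, Vκ6-23 and Vκ14-111, no region was wider than 275 bp, and those of Vκ14-111 were at most 50 bp. Over the whole list the median region was 625 bp. A region of at least 500 bp was found at 6 Vκ genes, against 34.3% of all genes and 4.38% of genes of at most 1000 bp. Vκ2-109 is the gene with the widest region and had no H3K27ac entry, the nearest lying 30308 bp away. It shared 33.6% of its 32-mers with Vκ2-116, a RefSeq pseudogene that had H3K4me3 regions of 100 and 25 bp.

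Families differed in the share of their genes with entries. H3K27ac was found in 15 of the 19 families, H3K4me3 in 7 and Pax5 in 8, and 4 families had no entry of any list. Family Vκ1, the second largest, had 11 genes, of which 6 had H3K27ac, 4 had H3K4me3 and 3 had Pax5, and its 4 genes without any entry were Vκ1-132, Vκ1-131, Vκ1-115 and Vκ1-99. All 4 of its H3K4me3 genes, Vκ1-135, Vκ1-122, Vκ1-117 and Vκ1-110, also had H3K27ac. Family Vκ12 had 7 genes, of which 4 had H3K27ac, with scores of 11.4 at Vκ12-98 and at Vκ12-89 beside the 2 given above. Family Vκ5 had H3K27ac and Pax5 at the same 3 of its 5 genes. In family Vκ9, 3 of 4 genes had H3K27ac, with the highest score, 13.2, at Vκ9-124, and in family Vκ14 it was 2 of 4, with the highest score, 8.16, at Vκ14-111.

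The largest family, Vκ4, had 26 genes, all on the opposite strand, and 7 of them (26.9%) had H3K27ac, while none had H3K4me3 or Pax5. The scores were low, from 4.49 at Vκ4-79 to 10.6 at Vκ4-78, with a median of 6.66 over the 7 genes. A run of 4 neighbours, Vκ4-81, Vκ4-80, Vκ4-79 and Vκ4-78, had H3K27ac, and the other 3 genes were Vκ4-71, Vκ4-69 and Vκ4-58. Sequence of this family recurs in the genome. A median of 48.1% of the 32-mers in their windows were unique and 64.7% occurred at most 3 times in the genome, whereas over all 100 genes the latter median was 94%. A read with as many as 3 equally good places had been retained by the authors, and the part of repeated sequence in the counts of this family was not tested.

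Families Vκ3, Vκ6 and Vκ8 lie nearest to Jκ1 and had few entries. Of the 8 Vκ3 genes, all on the strand of Igkc, Vκ3-10 had H3K27ac with a score of 4.38, the lowest at any Vκ gene. Families Vκ6 and Vκ8 had 9 genes each with 2 H3K27ac genes each. The highest scores were 8.16 at Vκ6-25, whose entry lay 259 bp from the gene, and 12.3 at Vκ8-21. Family Vκ6 also had 2 H3K4me3 genes, Vκ6-25 and Vκ6-23. Family Vκ8 had Pax5 at Vκ8-30, whose nearest H3K27ac entry lay 42598 bp away, whereas the nearest at Vκ1-35, the other gene with Pax5 alone, lay 604 bp away. Family Vκ2 had 4 genes, with H3K27ac at Vκ2-137 (score 11.4) and H3K4me3 at Vκ2-116 and Vκ2-109. Of 7 families with a single annotated gene, Vκ11-125, Vκ15-103 and Vκ19-93 had H3K27ac, while Vκ7-33, Vκ13-84, Vκ16-104 and Vκ18-36 had no entry. The authors name further genes of families Vκ13 and Vκ15, so these are single only in this annotation.

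**Figure D2:**
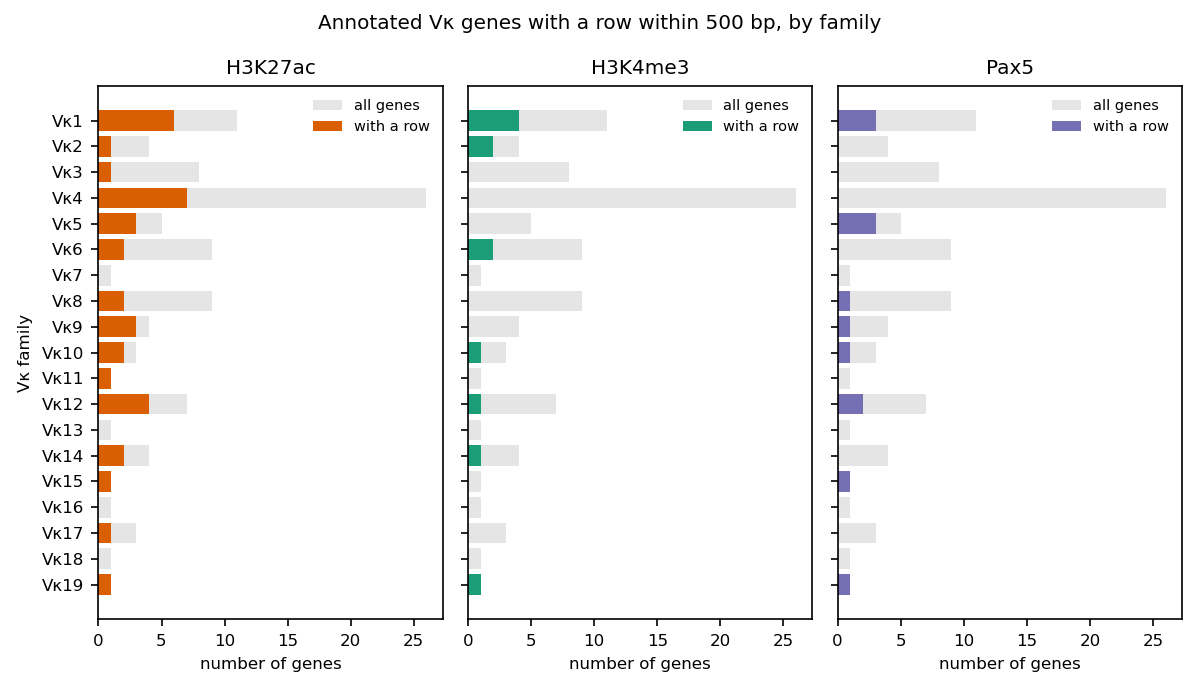
Number of annotated genes (x axis) in each Vκ family (y axis), in grey, and of those with an entry within 500 bp, in colour, for H3K27ac, H3K4me3 and Pax5. Family Vκ4 has 7 of 26 genes with H3K27ac and none with the other lists, and family Vκ1 has 6, 4 and 3 of 11.

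Orientation was then compared. H3K27ac was found at 17 of 38 genes (44.7%) on the strand of Igkc and at 20 of 62 (32.3%) on the opposite strand. H3K4me3 was found at 10 of 38 (26.3%) and at 2 of 62 (3.23%), and Pax5 at 5 of 38 (13.2%) and 8 of 62 (12.9%). With the higher-scoring 50% of the lists the counts were 8 and 10 for H3K27ac and 1 and 0 for Pax5, and with H3K4me3 regions of at least 500 bp they were 5 and 1. The 2 opposite-strand genes with H3K4me3 were Vκ19-93 and Vκ6-23. The higher scores were not on the strand with the higher share, since the median H3K27ac score was 8.16 on the strand of Igkc and 9.37 on the opposite strand.

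Genes of 7 families were found on both strands, with 18 genes on the strand of Igkc and 28 on the opposite strand. Of the 18, 14 lay in the far part of the locus and 4 in the near part, while of the 28, 6 lay in the far part, 5 in the middle part and 17 in the near part, so strand and position go together here too. H3K27ac was found at 11 (61.1%) of the former and 9 (32.1%) of the latter, H3K4me3 at 7 (38.9%) and 1 (3.57%), and Pax5 at 4 each (22.2% and 14.3%). In family Vκ1, 5 of 8 genes on the strand of Igkc had H3K27ac, against 1 of 3 on the opposite strand, and the 4 genes with H3K4me3 were all on the strand of Igkc, but all 8 genes on that strand lie in the far part. The family with the opposite order was Vκ8, with H3K27ac at 0 of 2 genes on the strand of Igkc and 2 of 7 on the other.

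Orientation and position go together in this locus, because there were 16 changes of strand along the 100 genes and most genes lay in long blocks of 1 strand. The genes were split by order into 3 parts of about equal number. The far part, 1950 to 3170 kb from Jκ1, had 25 genes on the strand of Igkc and 9 on the opposite strand, while the middle part, at 899 to 1910 kb, had 1 and 32, and the near part, at 18.4 to 864 kb, had 12 and 21. H3K27ac was found at 18 of 34 genes (52.9%) in the far part, 14 of 33 (42.4%) in the middle part and 5 of 33 (15.2%) in the near part. For H3K4me3 the counts were 10, 0 and 2, and for Pax5 6, 5 and 2.

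Within these parts the difference between strands was not uniform. In the far part, H3K27ac was at 15 of 25 genes on the strand of Igkc and 3 of 9 on the opposite strand, and H3K4me3 at 9 and 1. In the near part the shares for H3K27ac were close, with 2 of 12 (16.7%) and 3 of 21 (14.3%), and H3K4me3 was at 1 gene of each strand. In the middle part 14 of 32 opposite-strand genes (43.8%) had H3K27ac, and the single gene on the strand of Igkc, Vκ13-84, had no entry. Strand and position cannot be told apart there. At the ends of the locus, the farthest gene on the strand of Igkc, Vκ2-137, had H3K27ac, and the nearest, Vκ3-1, had no entry, the nearest Pax5 entry lying 4906 bp and the nearest H3K27ac entry 5353 bp away. On the opposite strand neither the farthest gene, Vκ17-134, nor the nearest, Vκ6-13, had an entry.

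**Figure D3:**
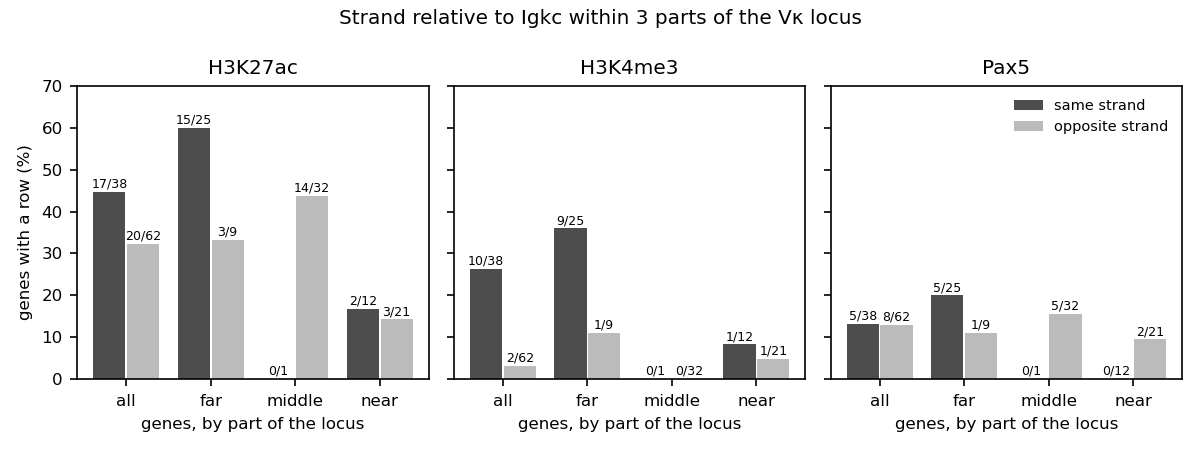
Percentage of Vκ genes with an entry within 500 bp (y axis) for all genes and for each part of the locus (far, middle and near, by order from Jκ1), with dark bars for genes on the strand of Igkc and light bars for the opposite strand; the counts stand above the bars. The H3K27ac bars differ between strands in the far part (15 of 25 and 3 of 9) and are close in the near part (2 of 12 and 3 of 21).

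The place of each entry relative to the gene was then described. Of the 45 H3K27ac entries at Vκ genes, the midpoint was within the gene for 35, before the annotated start for 5 and past the end for 5. The annotated start was covered by H3K27ac in 16 of 37 genes and the RSS in 15 of 37. Of the 17 H3K4me3 regions, 13 had the midpoint within the gene, 1 before the start and 3 past the end, and the start was covered in 8 of 12 genes. Of the 13 Pax5 entries, 7 had the midpoint past the end, on the side of the RSS, at Vκ1-117, Vκ1-110, Vκ1-35, Vκ5-48, Vκ5-45, Vκ5-43 and Vκ8-30. The midpoint was before the start at Vκ9-129, Vκ15-103 and Vκ19-93 and within the gene at Vκ10-95, Vκ12-46 and Vκ12-44. Thus all 3 Vκ1 and all 3 Vκ5 genes with Pax5 had it past the end, and both Vκ12 genes within the gene. Pax5 covered the RSS in 10 of 13 genes, the exceptions being the 3 with the midpoint before the start, and all 13 entries overlapped the gene itself. For promoters with an exact octamer, coverage was scored for the octamer together with 11 bases on each side. Pax5 covered this whole stretch in 5 of 8 genes, H3K27ac in 3 of 23 and H3K4me3 in 2 of 6. Coverage of the octamer alone was not counted, and it can be more frequent. The Pax5 entries had a median width of 720 bp, and the midpoint at Vκ5-45 was 17 bp past the end.

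**Figure D4:**
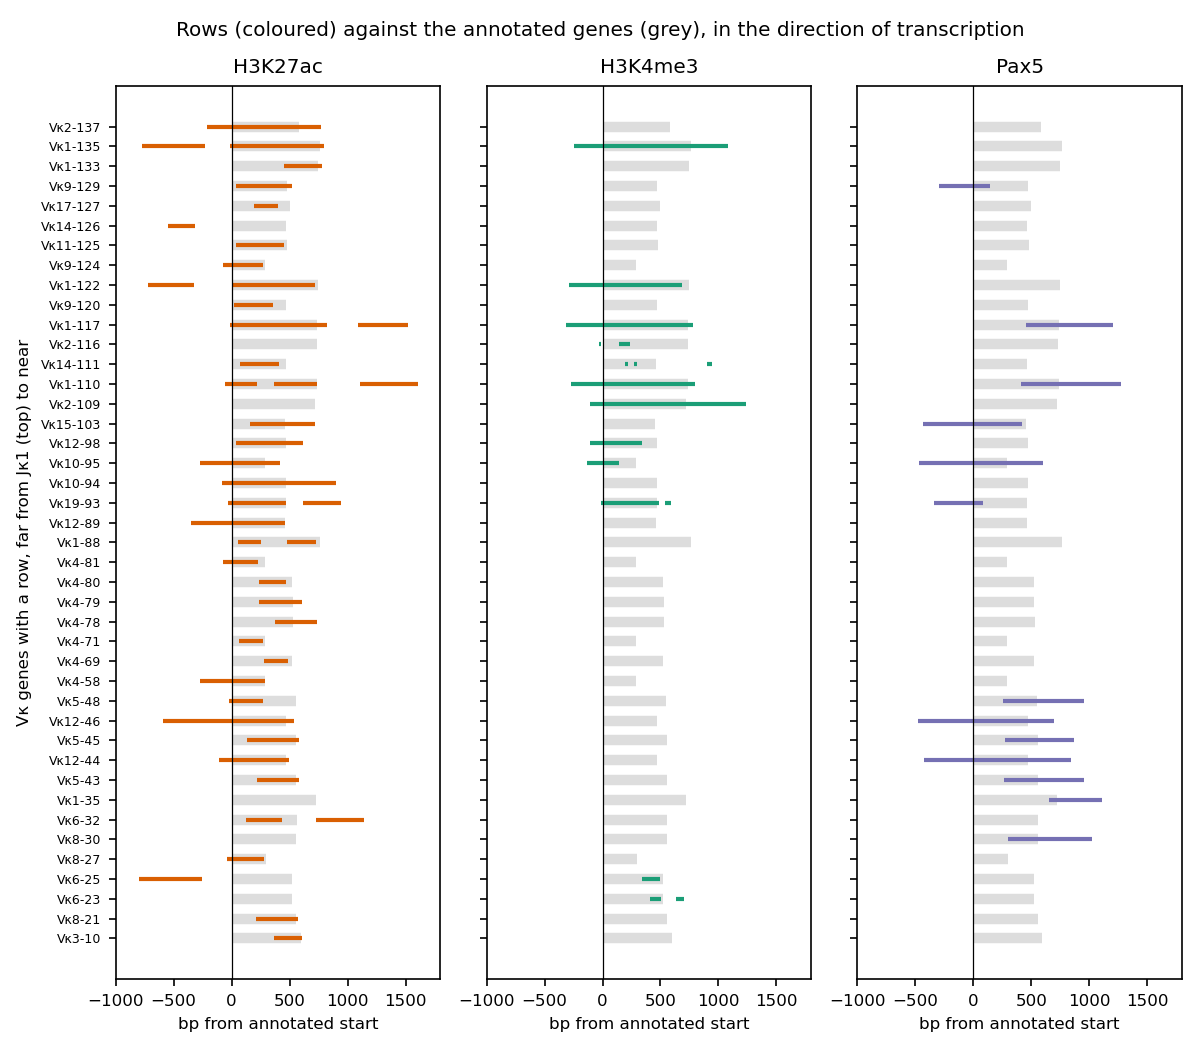
Entries (coloured lines) of H3K27ac, H3K4me3 and Pax5 at the 42 Vκ genes with at least 1 entry (y axis, from far to near Jκ1), against bp from the annotated start in the direction of transcription (x axis), with the annotated gene in grey. Pax5 entries run past the end of Vκ1 and Vκ5 genes and of Vκ8-30, and across the start of Vκ9-129, Vκ15-103 and Vκ19-93. At Vκ10-95, Vκ12-46 and Vκ12-44 they run across the start and past the end.

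Most H3K27ac and Pax5 entries in the locus were not at an annotated Vκ gene, whereas most H3K4me3 regions were. Between the first and the last gene there were 101 H3K27ac entries, of which 45 were at genes and 56 were not, and for Pax5 the counts were 13 of 38. For H3K4me3 it was 17 of 19 regions. The windows of the 100 genes cover 4.79% of this stretch. The median H3K27ac score was 8.16 at genes and 7.68 elsewhere in the locus, and the median Pax5 score was 163 at genes and 142 elsewhere. Vκ genes missing from the annotation count as elsewhere, and the entries at such genes were not counted.

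The promoters shared features that the rule did not use. A leader exon was annotated for 82 genes, and the octamer ATGCAAAT (either strand) was found in the 250 bp before the annotated start of 60 of them (73.2%), against 2.09% of all annotated genes. All 60 were in the reverse orientation, with 75 to 124 bp between the octamer and the start (median 95). The octamer went with family. It was found in all 18 Vκ4 genes with a leader exon, as in all 7 Vκ3, 7 Vκ12 and 4 Vκ14 genes with one, but in none of the 8 Vκ6 and 6 Vκ8 genes with one. With 1 mismatch allowed it was found in 80 of 82 genes, but the share of all annotated genes was not counted at this setting. Among 31 genes with a leader exon and H3K27ac, 23 had the octamer, and among 51 without H3K27ac it was 37. The TATA box letters TATAAA were found in 46 genes (56.1%), against 15% of all genes.

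The E-box letters CAGGTG were found before 14 of the 82 genes (17.1%), against 16.7% of all genes, with 12 on the strand of Igkc (of 35) and 2 on the opposite strand (of 47). They were before 5 of 7 Vκ3 and 3 of 4 Vκ14 genes, families only on the strand of Igkc. Family Vκ4, only on the opposite strand, had them before 1 of 18 genes. Strand and family were not separated in these counts. The letters GCGTGAC, part of a Pax5 site, were in no window, against 1.57% of all genes, which says only that these letters are not in these 250 bp. The Vκ promoters were poor in CpG, with a median of 0 and at most 3 CpG in 250 bp, against a median of 4 for all genes.

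An RSS with at least 12 of 16 heptamer and nonamer bases matching the consensus was found within 100 bp of the end of 95 genes, and directly at the end of 83. It was not found at Vκ1-131, Vκ1-115, Vκ10-96, Vκ4-62 and Vκ12-47, none of which had an entry. Of the 95 genes with an RSS, 53 had no entry either. The annotation of Vκ10-96 is a fragment of 123 bp, so the search did not start from the end of a complete gene, and this gene is not shown to lack an RSS. The heptamer matched in full at 83 genes and the nonamer at 34. All 8 Vκ3 genes and 19 of 26 Vκ4 genes matched both in full, whereas no gene of families Vκ1, Vκ5, Vκ6, Vκ9, Vκ12, Vκ14 and Vκ17 had the full nonamer. The full nonamer was found at 10 of 37 genes with H3K27ac and 24 of 63 without, at 1 of 12 genes with H3K4me3, Vκ19-93, and at 1 of 13 with Pax5, also Vκ19-93. The sequences above show that Vκ12-46 and Vκ12-44, and likewise Vκ5-45 and Vκ5-43, had the same RSS as each other, so genes of a family are not independent in these counts.

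**Figure D5:**
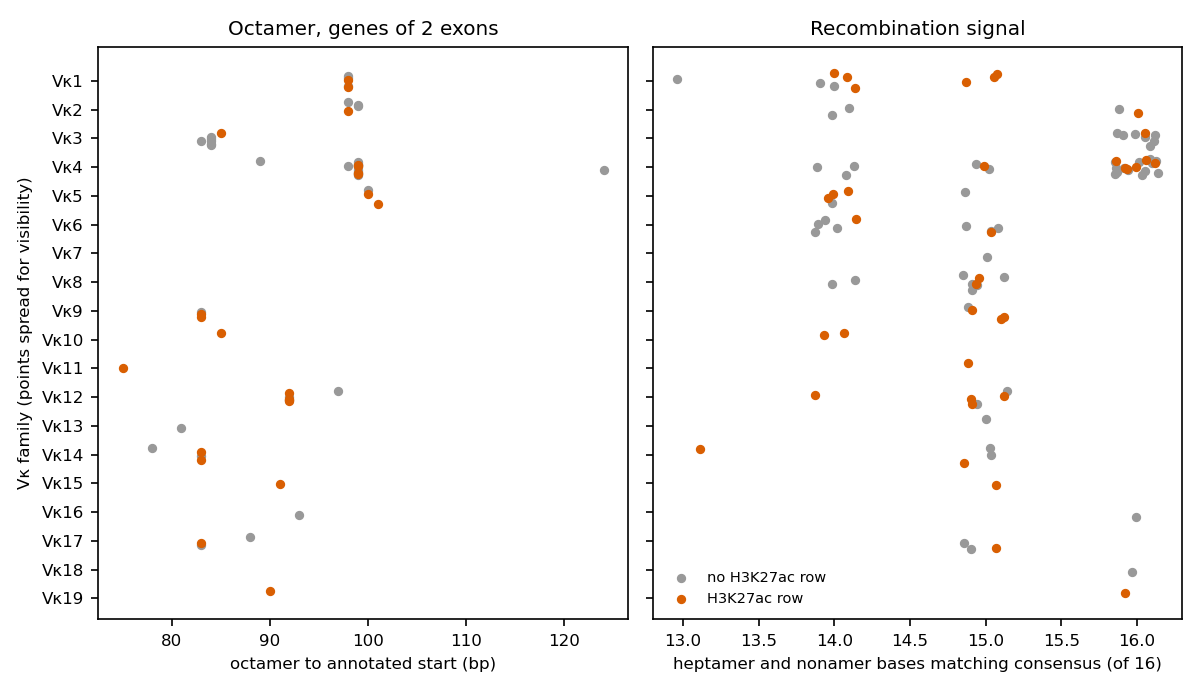
Distance in bp from the octamer to the annotated start for genes with a leader exon and an exact octamer (left), and number of heptamer and nonamer bases of the RSS that match the consensus, of 16 (right), by Vκ family; each point is 1 gene, orange with and grey without H3K27ac, spread slightly for visibility. The points group by family, with Vκ3 genes at 16 of 16 and Vκ12 octamers at 92 or 97 bp, and both colours occur in the larger families.

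Genes with and without H3K27ac overlapped in how much of their sequence is repeated. A median of 96.7% of 32-mers occurred at most 3 times in the genome for the 37 genes with H3K27ac (range 51 to 100%) and 93.6% for the 63 without (range 45.8 to 100%). Among RefSeq pseudogenes 1 of 6 had H3K27ac (Vκ14-126) and 1 of 6 H3K4me3 (Vκ2-116), and 36 of the 94 other genes (38.3%) had H3K27ac. The authors, following IMGT, did not class Vκ14-126 as a pseudogene. A leader exon was lacking in the annotation of 18 genes, of which 6 had H3K27ac, against 31 of 82 with both exons. The start of those 18 genes is not that of a leader exon, and Vκ10-96 is annotated as a fragment of 123 bp.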

How the data were processed

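ChIP-seq lists for H3K27ac, H3K4me3 and Pax5 were used, with 1 library each. Reads of the 3 input samples were not used here. The authors aligned reads to mm9, where a read with as many as 3 equally good places was retained. The processing notes name Bowtie 0.12.9 and MACS 1.4.2, and the settings with which these lists were called are not given in the sources used here. The deposited H3K27ac and Pax5 lists hold 69345 and 15445 entries with a score from the peak caller, and by its name the Pax5 list was called against input. The deposited H3K4me3 list holds 782636 bins without a score, here joined into 23237 regions where they touched. All entries ended within the NCBIM37 chromosomes.

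Genes and exons were taken from GENCODE M1, gene classes from RefSeq, and sequences from NCBIM37. An entry belonged to a gene with at least 1 bp within 500 bp of it. Every 32-mer of a gene with its flanks was counted over the genome on both strands. The motifs given in the report were searched on both strands in the 250 bp before the annotated start. An RSS was searched with spacers of 11 to 13 bases. Python 3.11.15, pandas 2.3.3, numba 0.67.0 and pysam 0.24.0 were used, and the overlap code was tested on simulated intervals.

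Members and lists were chosen with earlier results of these data known. The genes named by rule were those with entries of all 3 lists, the 5 with the highest H3K27ac and Pax5 scores, the member with the highest H3K27ac score of each family of at least 4, the nearest and farthest gene on each strand, those with Pax5 or H3K4me3 but no H3K27ac, and the families of 1. Other genes were named after their values were seen. A marker of the B lineage list is not reported here. Alternatives were other windows, the midpoint rule, stricter lists, other member sets, 1 mismatch or 500 bp for the octamer, and 14 of 16 bases for the RSS.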

Additional observations from a re-analysis of the deposited data

How the results depend on the processing

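Of 75 alternative values, 64 were within 1.5 times the reported count and 11 were not, all from stricter lists. With the higher-scoring 50% of the list, H3K27ac was at 18 Vκ genes, 8 on the strand of Igkc and 10 on the opposite strand. Pax5 was then at 1 gene, Vκ15-103, with 1 on the strand of Igkc, 0 on the opposite strand and 1 family. With H3K4me3 regions of at least 500 bp, 6 genes of 3 families had H3K4me3, 5 on the strand of Igkc and 1 on the opposite strand. Windows without flanks, with 1000 bp or with 2500 bp gave 35, 38 and 40 genes for H3K27ac, 12, 13 and 13 for H3K4me3, and 13, 13 and 14 for Pax5. No Vκ gene was longer than 2500 bp, so leaving out longer genes changed nothing and is not counted. No paired analysis was possible because no 2 libraries measured the same mark. With depth unknown and 1 library per list, a gene without an entry is not shown to lack the mark.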
